A study of Mus musculus with 17 samples.

Results

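The histone genes of mouse hematopoietic stem and progenitor cells were followed on mRNA arrays of 6 sorted populations. Members were the gene names of the array that begin with Hist1h to Hist4h (the genes of the histone clusters) or with H2af, H1f or H3f3 (the replacement variants). This gave 49 of the 28090 gene names on the array, of which 36 were cluster genes and 13 were replacement variants. They were covered by 69 probes, and where a gene had several probes the one with the highest mean over all arrays stood for it.

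All populations came from the bone marrow of female C57Bl/6 mice aged 6 to 8 weeks, with 10 to 20 mice pooled for each replicate and no genetic change or treatment. Marrow was depleted of cells carrying B220, CD3, GR-1 or Ter119, enriched for c-kit, and sorted with antibodies to FLT3, FcRγ, sca-1 and CD34. The HSC subsets were long-term stem cells (LT-HSC, n = 2 arrays, of which 1 carried a pool of replicates 2 and 3), short-term stem cells (ST-HSC, n = 3) and multipotent progenitors (MPP, n = 3). The myeloid progenitors were the common myeloid (CMP, n = 3), granulocyte-monocyte (GMP, n = 3) and megakaryocyte-erythroid progenitors (MEP, n = 3). Each of the 17 samples was hybridized to 1 single-color Agilent array, so a value is the brightness of a probe and not a count of molecules.

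Histone proteins wrap DNA into nucleosomes, with H2A, H2B, H3 and H4 forming the core and H1 binding the linker. The cluster genes supply the bulk of these proteins while DNA is copied, and their mRNAs are unusual in ending in a short stem-loop, bound by Slbp, instead of a poly(A) tail. Most replacement variants are made at any time in the cell cycle from mRNAs with ordinary poly(A) tails, while H2afx is known for mRNAs of both kinds. They include H3.3 (H3f3a, H3f3b), H2A.Z (H2afz, H2afv), H2A.X (H2afx) and macroH2A (H2afy, H2afy2). How the labelling reaction was primed is not given in the sources used here. How far mRNAs without a poly(A) tail were labelled is therefore not known, and this limits what the cluster probes report.

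Of the cluster genes, 26 had their probe on chromosome 13, 6 on chromosome 3, 3 on chromosome 11 and 1 on chromosome 6 (mm9). The probes of 3 cluster genes reached into the stem-loop itself, a stem of GGCTCT and its complement AGAGCC around a loop of TTTC, and are shown because they fix where on the mRNA the level was read. Only these exact letters were searched, and a part of them was counted from 11 bases at an end of a probe. Stem-loops with other letters and shorter overlaps were not counted. Only the Hist1h3a probe held the whole stem-loop, which was found in 1 of the 41174 probes of the array. The Hist1h2ab probe ended within it, whereas the Hist1h2ae probe began within it and had its 48 other bases 3′ of it, beyond the usual end of a stem-loop mRNA. Each window is 30 bases of the probe, 5′ to 3′, with the stem-loop bases in capitals.
Hist1h2ab: gaaagttaaccaaaacaaaGGCTCTTTTCA
Hist1h2ae: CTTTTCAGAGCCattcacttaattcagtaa
Hist1h3a: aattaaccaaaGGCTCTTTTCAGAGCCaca

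Promoters of H2B genes are known for an octamer, the binding site of the factor Oct-1, and many H2B genes share a divergent promoter with an H2A gene. The letters ATTTGCAT, searched on both strands of RefSeq promoters (GRCm38.p6), were present for 4 of the 8 H2B gene names that matched a promoter (7 distinct promoters, since Hist3h2ba and Hist3h2bb matched the same one) and for 6 of 10 H2A genes, where they read ATGCAAAT on the gene's strand. They were present for 0 of 6 H1, 0 of 2 H3 and 0 of 5 H4 genes, and for 570 of all 32851 promoters (1.74%). The 4 H2B windows are shown, because H2B held more of the called cluster genes than any other histone type. The octamer is in capitals, 5′ to 3′ on the strand of the gene. The windows lie at chr13:22035780-22035809 (Hist1h2bk), chr13:21722008-21722037 (Hist1h2bm), chr3:96269641-96269670 (Hist2h2bb) and chr13:23934302-23934331 (Hist1h2ba), and the last is shared with the promoter of the neighbouring Hist1h2aa.
Hist1h2bk: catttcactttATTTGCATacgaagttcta
Hist1h2bm: ctctcgtctctATTTGCATaacagcgtgta
Hist2h2bb: tgtgaaacctcATTTGCATacaagctctat
Hist1h2ba: gaattccccttATTTGCATgcacccagcac

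Cluster genes resemble each other closely, and this limits what a probe can separate. The probes of 11 cluster genes listed transcripts of several genes in the array's annotation (Hist1h2af, Hist1h2ai, Hist1h2bk, Hist1h2bm, Hist1h3d, Hist1h4a, Hist1h4d, Hist1h4f, Hist2h2aa1, Hist2h2ac and Hist2h3c1), so their values are uncertain as to the gene. The probes of 21 listed 1 gene, and those of Hist1h2al, Hist1h2bp, Hist1h4i and Hist2h2bb listed none. The Hist1h2al probe mapped to chr13:51295494-51295553, away from the cluster. Probes were well above background on all 17 arrays for 28 cluster genes, on some arrays for 7 and on none for 1, Hist1h2be. Of the replacement variants, 11 were well above background on all arrays and H1fnt and H2afy2 on some.

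The labels were checked between HSC subsets and myeloid progenitors and between MEP and GMP, with 6 of 6 stem cell markers higher in HSC subsets than in myeloid progenitors, and all 6 MEP markers higher and all 5 GMP markers lower in MEP than in GMP. No marker list was used to tell LT-HSC, ST-HSC and MPP from each other. By the scanner headers the arrays fell into 3 scan runs, of which run 2 spans a pair of scan days (CMP, GMP and MPP on one, MEP and ST-HSC on the other). Run 1 held numbered CMP, GMP and MEP arrays, run 2 the unnumbered ST-HSC, MPP, CMP, GMP and MEP arrays, and run 3 both LT-HSC arrays and the numbered ST-HSC and MPP arrays. Outside run 2, HSC subsets and myeloid progenitors were therefore scanned apart, and run and population cannot be told apart there. The unnumbered LT-HSC array was the dimmest: its 75th percentile of intensity was 51.6, and those of the other arrays were 237 to 514.

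A difference was called where limma's adjusted p was under 0.05 in a fit over all gene names and all 17 arrays. All levels and differences below are on the log2 scale of quantile-normalized intensity, and SE is that of the fit. Each array is 1 pool of sorted cells, and this fit has no term for scan run. Its p-values therefore rest on the spread between arrays of a population, which holds pools and scan runs together. Fewer expressing cells cannot be told apart from less RNA per cell.

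Over the 6 populations, limma's F-test called 8 of 13 replacement variants and 6 of 36 cluster genes, beside 40.2% of all gene names. The smallest p-values belonged to the macroH2A gene H2afy and its relative H2afy3, which were lowest in MEP. With 1 array left out at a time the count of cluster genes ranged from 3 (without MPP 2, MPP 3, GMP 1 or GMP 2) to 11 (without the unnumbered ST-HSC array). The cluster genes with the smallest adjusted p in limma's F-test were Hist1h1d (0.0024), Hist2h2be (0.0027), Hist1h2bc (0.0087), Hist1h1a (0.030), Hist1h2bk (0.045) and Hist1h2bp (0.047). The replacement variants with the smallest were H2afy3 (5.5e-06), H2afy (8.7e-06), H2afx (0.00018) and H1f0 (0.0021).

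H2afy encodes macroH2A1, a large H2A variant that carries a macro domain and is found on silent chromatin such as the inactive X chromosome. Its probe lay at chr13:56184528-56184587 (mm9). H2afy was measured at 11.87 and 12.46 in LT-HSC, at 12.62, 12.67 and 13.42 in ST-HSC, and at 13.91, 13.97 and 14.74 in MPP. It was measured at 14.32, 14.65 and 14.87 in CMP, at 13.69, 14.21 and 14.30 in GMP, and at 11.13, 11.56 and 11.60 in MEP. Every MEP array was below every other array, and the LT-HSC, ST-HSC and MPP arrays did not overlap each other, in that order from low to high. Ordered by mean, MEP stood at 11.43 ± 0.26, LT-HSC at 12.16 ± 0.42, ST-HSC at 12.90 ± 0.45, GMP at 14.07 ± 0.33, MPP at 14.21 ± 0.46 and CMP at 14.62 ± 0.28 (SD, n = 2 for LT-HSC and n = 3 for the others).

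In MEP, H2afy was 9.11-fold below CMP (log2 difference -3.19, SE 0.29, limma adjusted p = 4.6e-06) and 6.23-fold below GMP (-2.64, SE 0.29, adjusted p = 1.9e-05). In MPP it was 4.11-fold above LT-HSC (2.04, SE 0.33, adjusted p = 0.0021) and 2.47-fold above ST-HSC (1.3, SE 0.29, adjusted p = 0.031), a call that was lost when any of the numbered ST-HSC arrays, the 3 MPP arrays or CMP 2 was left out. The step from ST-HSC to MPP was seen in both runs that held them. In run 3 MPP read 13.91 and 13.97 against 12.62 and 12.67 in ST-HSC, and in run 2 it read 14.74 against 13.42. GMP minus CMP was -0.55 and was not called (limma adjusted p = 0.52), although the arrays did not overlap, and with scan run as a block the same difference was called (adjusted p = 0.027). HSC subsets minus myeloid progenitors was -0.28 and was not called (limma adjusted p = 0.23), but it was 1.03 within run 2 and 0.66 with scan run as a block (adjusted p = 0.019), so its sign depended on how the run was treated. A separate H2afy probe gave -3.29 for MEP against CMP, -2.65 for MEP against GMP and 1.91 for MPP against LT-HSC, all called by limma, but its 1.28 for MPP against ST-HSC was not called (adjusted p = 0.27). Within the numbered myeloid arrays of run 1, the differences of MEP from CMP and GMP were -3.18 and -2.68. Within run 3 MPP minus LT-HSC was 1.77 with a limma adjusted p of 0.065, and MPP minus ST-HSC was 1.3 with an adjusted p of 0.21.

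The H2afy3 probe, at chr15:62049165-62049224 (mm9), listed a transcript that RefSeq names Macroh2a3, a transcribed pseudogene related to macroH2A. H2afy3 was measured at 8.64 and 8.82 in LT-HSC, at 9.24, 9.29 and 9.41 in ST-HSC, and at 9.98, 10.13 and 10.21 in MPP. In the myeloid progenitors it was measured at 7.69, 7.70 and 8.69 in CMP, at 7.41, 7.60 and 7.97 in GMP and at 6.49, 6.76 and 7.28 in MEP. All ST-HSC and MPP arrays were above all myeloid arrays, while 1 LT-HSC array fell just below the highest CMP array. HSC subsets were 3.66-fold above myeloid progenitors (1.87, SE 0.16, limma adjusted p = 1.5e-06), and the difference was 1.66 within run 2 and 1.32 with scan run as a block. MPP was also above LT-HSC (1.37, SE 0.30, limma adjusted p = 0.014), and MEP below CMP (-1.19, SE 0.27, adjusted p = 0.0060) and below GMP (-0.82, SE 0.27, adjusted p = 0.047, a call lost under 13 of 27 alternative settings). MPP minus ST-HSC was 0.79 and was not called (limma adjusted p = 0.21), although the arrays did not overlap. H2afy and H2afy3 thus both had their lowest mean in MEP, but the CMP and GMP means of H2afy3 were below all 3 HSC subsets whereas those of H2afy were not.

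H2afx encodes H2A.X, the variant that is phosphorylated around DNA breaks. H2afx was measured at 13.40 and 13.50 in LT-HSC and at 13.44, 13.50 and 13.62 in MEP, against 14.03 to 14.50 on the 12 other arrays. The LT-HSC and MEP arrays overlapped each other and lay apart from the rest; MEP markers in the LT-HSC arrays are given below. MPP was above LT-HSC by 0.79 (SE 0.14, limma adjusted p = 0.0047), and MEP was below CMP by a log2 difference of -0.81 (SE 0.13, adjusted p = 0.00045) and below GMP by -0.82 (SE 0.13, adjusted p = 0.00038). With each array scaled to its 75th percentile, a setting under which the median difference of all gene names was 0.50 for MEP minus CMP and 0.43 for MEP minus GMP in place of 0.10 and 0.07, the H2afx differences were -0.33 and -0.48 and were not called.

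**Figure D1:**
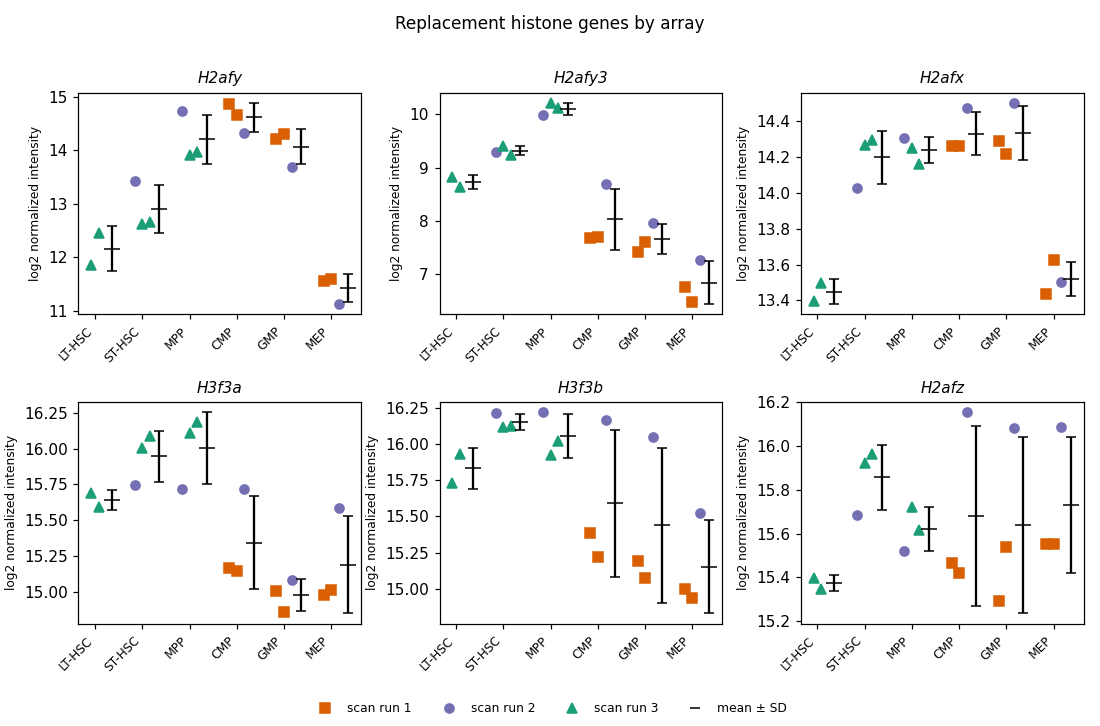
Replacement histone genes by array, in 6 panels with 1 gene each: x axis, population; y axis, log2 normalized intensity. Each symbol is 1 array, its shape and color giving the scan run, and bars are mean ± SD (n = 2 LT-HSC, n = 3 others). H2afy was lowest in MEP and climbed from LT-HSC to MPP, H2afx was low in LT-HSC and MEP, and the run 2 arrays of H2afz and H3f3b in CMP, GMP and MEP stood above those of run 1.

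H3f3a and H3f3b encode the same protein, H3.3, which is placed in chromatin outside DNA replication. H3f3a was higher in HSC subsets by 0.69 (SE 0.13, limma adjusted p = 0.00060), with 15.59 to 16.19 on HSC subset arrays and 14.86 to 15.72 on myeloid arrays. H3f3b was higher by 0.62 (SE 0.17, limma adjusted p = 0.010), with 15.73 to 16.22 against 14.94 to 16.17. The groups overlapped for both genes through the run 2 arrays of myeloid progenitors. Within run 2 the differences were 0.27 for H3f3a and 0.30 for H3f3b, and with scan run as a block they were 0.12 and 0.23, neither called.

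Of the H2A.Z pair, H2afv was higher in HSC subsets by 0.68 (SE 0.16, limma adjusted p = 0.0034; 0.50 within run 2; 0.33 with scan run as a block, not called), whereas H2afz differed by -0.07 (limma adjusted p = 0.74). H2afv was measured at 16.49 to 16.58 in MPP and at 14.89 to 15.39 in MEP, the ends of its range. H2afz was, with scan run as a block, called lower in HSC subsets (-0.65, limma adjusted p = 0.0027), and within run 2 its difference was -0.51. By their brightest probes, H2afz, H2afj and H2afy2 were called in no comparison without that block. A dimmer H2afj probe, well above background on all 17 arrays, was called lower in HSC subsets (-0.32, limma adjusted p = 0.046). H2afy2, which encodes macroH2A2, was well above background on 1 array. Its probe also listed a transcript of Macroh2a3, the gene of the H2afy3 probe, so its values are uncertain as to the gene.

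Among the linker variants, H1f0, known for accumulating in cells that have stopped dividing, was higher in HSC subsets by 0.46 (SE 0.097, limma adjusted p = 0.0020) and lower in GMP than CMP by a log2 difference of -0.66 (SE 0.16, adjusted p = 0.029). It was measured at 8.62, 8.87 and 9.0 in GMP and at 9.04 to 10.01 on all other arrays, so that GMP did not overlap any other population by this probe. A pair of dimmer H1f0 probes, well above background on 9 and 6 arrays, were lower in MEP than in GMP, by log2 differences of -0.65 and -0.97 that were not called, where the brightest probe gave 0.42, so the order of the populations depends on the probe. The second of them was called lower in MEP than in CMP (-2.01, limma adjusted p = 0.0041). The call between GMP and CMP was lost when any 1 of the CMP arrays, GMP 1 or GMP 2 was left out, and the mean of all H1f0 probes gave -0.019 for HSC subsets minus myeloid progenitors in place of 0.46. H1fnt, a linker histone of male germ cells, was well above background on 6 of 8 HSC subset arrays and on no myeloid array, and was at least 1.29-fold higher in HSC subsets (limma adjusted p = 0.0014). Its fitted difference with scan run as a block fell from 1.67 to 0.31 and was not called (limma adjusted p = 0.77). H1foo, the linker histone of oocytes, was higher by 0.94 (SE 0.21, limma adjusted p = 0.0029), with 0.15 within run 2. Neither H1foo (0.23) nor H1f0 (0.36) was called with scan run as a block.

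H1fx was the single replacement variant called lower in HSC subsets (-1.68, SE 0.61, limma adjusted p = 0.042). Its levels followed the scan run, with 11.87 to 13.36 on run 3 arrays, 13.63 to 14.93 on run 1 arrays and 15.29 to 16.15 on run 2 arrays. Within run 2 the difference was 0.044, and with scan run as a block it was 0.23. The probe that stood for H1fx had no mapped position and listed no gene, so its values are uncertain as to the gene. A separate H1fx probe, at chr6:87931037-87931096 (mm9), listed a transcript of the gene. It gave 0.31 for the same comparison and was not called, so the probes of H1fx disagreed. By that separate probe H1fx was called lower in MEP than in CMP (-1.62, limma adjusted p = 0.00066).

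In all, limma called 7 replacement variants higher and 1 lower in HSC subsets than in myeloid progenitors, beside 21.7% of all gene names higher and 19.1% lower (40.7% in either direction). Their median difference was 0.46, against 0.04 for all gene names. H1fnt was the single histone gene of the 49 whose HSC subset arrays were all above all myeloid arrays, and no histone gene had them all below, beside 3.1% and 4.08% of all gene names. MPP minus LT-HSC gave 3 replacement variants higher and none lower (3.17% higher and 5.27% lower over all gene names, 8.44% in all), and MPP minus ST-HSC gave 1 higher (1.48% higher, 1.2% lower, 2.68% in all). GMP minus CMP gave 1 lower (2.23% higher, 3.65% lower, 5.88% in all). MEP minus CMP gave 3 lower and none higher (7.73% higher, 10.5% lower, 18.3% in all), and MEP minus GMP likewise gave 3 lower (8.51% higher, 10.5% lower, 19% in all).

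The LT-HSC arrays, on which the comparisons of MPP with LT-HSC rest, also had the highest levels of B cell and T cell markers, at 2.06 to 2.55 and 1.57 to 1.60 above each marker's mean over all arrays. The other arrays lay between -1.68 and 0.56 for the 5 B cell markers, of which 3 were well above background on every array, and between -1.34 and 1.10 for the 5 T cell markers, of which 1 was. MEP markers moved the same way: all 6 were lower in MPP than in LT-HSC by limma, by log2 differences of -5.87 to -0.72. Their mean level relative to all arrays was 1.58 and 0.66 in LT-HSC, -2.88 to -1.94 in MPP, -0.60 to -0.11 in ST-HSC and 3.17 to 3.23 in MEP. LT-HSC and MEP had the 2 lowest means of H2afy and of H2afx and the 2 highest of Ccne1. Mature neutrophil markers were at 1.34 and 2.23 in LT-HSC, -1.20, -0.98 and 0.82 in MPP, 0.44 to 2.00 in ST-HSC and -2.14 to 0.66 in the myeloid progenitors. The part of these markers in the H2afy, H2afy3, H2afx and Ccne1 differences was not tested. In HSC subsets against myeloid progenitors limma called 4 of 5 B cell, 5 of 5 T cell and 4 of 5 mature neutrophil markers higher. All 5 neutrophil markers were above 0 over all arrays, with scan run as a block and within run 2, with medians of 1.41, 2.96 and 2.27, and the part of these markers in the histone differences of HSC subsets was not tested.

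Of the cluster genes, limma called 11 of 36 higher and 1 lower in HSC subsets than in myeloid progenitors (7 in all without MPP 3), and 20 of 36 differences were above 0 with a median of 0.04, the same as the 0.04 of all gene names. The share called, 12 of 36, was thus below the 40.7% of all gene names. With scan run as a block, 2 of the 11 were still called higher and the 1 was no longer called lower. Counts under this and other settings are given further below. By histone type the genes called higher were 2 of 6 H1, 1 of 11 H2A, 6 of 10 H2B, 2 of 3 H3 and 0 of 6 H4 genes, and the gene called lower was an H2B gene. Among the 11 genes whose probes list several genes 4 were called, against 8 of the other 25.

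**Figure D2:**
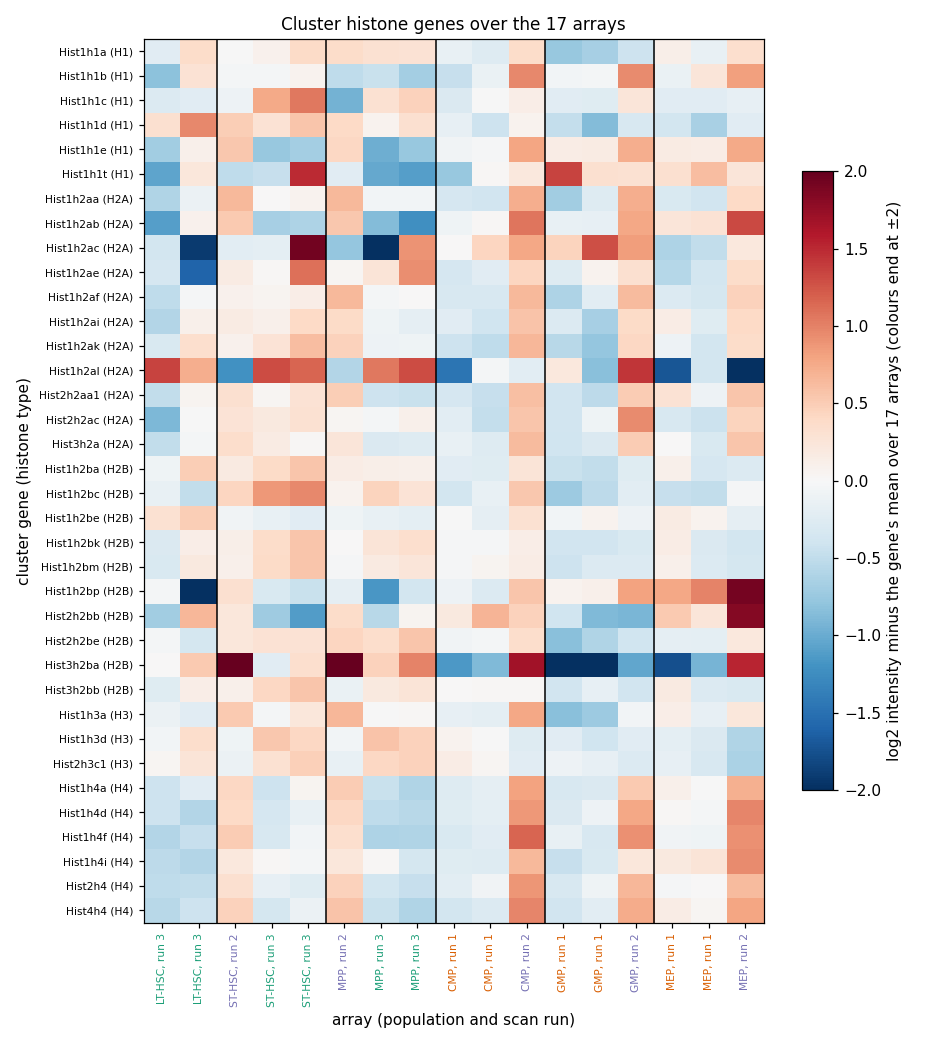
Cluster histone genes over the 17 arrays: rows, the 36 genes with their histone type; columns, arrays by population and scan run; color, log2 intensity minus the gene's mean over 17 arrays, with colors ending at ±2. The run 2 arrays of CMP, GMP and MEP are redder than the run 1 arrays of the same populations for most genes, and the H4 rows at the bottom share that step.

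Hist1h1d, one of the linker histones made in S phase, was the cluster gene called with the smallest adjusted p. It was measured at 10.86 and 11.51 in LT-HSC, at 10.83, 11.03 and 11.10 in ST-HSC and at 10.61, 10.86 and 10.94 in MPP. In the myeloid progenitors it was measured at 10.13, 10.38 and 10.62 in CMP, at 9.67, 10.07 and 10.22 in GMP and at 9.90, 10.17 and 10.31 in MEP. Apart from the highest CMP array, which lay just above the lowest MPP array, every HSC subset array was above every myeloid array. HSC subsets were 1.78-fold higher (0.83, SE 0.13, limma adjusted p = 0.00015), with 0.60 within run 2 and 0.72 with scan run as a block, still called. The other H1 gene called was Hist1h1a (0.35, SE 0.13, limma adjusted p = 0.037), whose difference was 0.08 within run 2.

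Of the H2B genes, Hist3h2ba had the largest difference, at 3.09-fold (1.63, SE 0.59, limma adjusted p = 0.042), and also the widest spread. Its unnumbered run 2 arrays read 10.15 in MPP, 9.39 in ST-HSC, 8.88 in CMP, 8.74 in MEP and 6.16 in GMP, each above the other arrays of its population. The others read 6.98 to 8.20 in ST-HSC and MPP, 7.21 and 7.73 in LT-HSC and 4.77 to 6.32 in the myeloid progenitors. The difference of HSC subsets from myeloid progenitors was 1.84 within run 2 and 1.80 with scan run as a block. The Hist3h2ba call was lost under 14 of 26 alternative tests, and the lowest difference was 0.89. The probe named Hist3h2bb lists a transcript of the same gene (H2bu2) as that named Hist3h2ba and gave 0.28, not called (limma adjusted p = 0.052), so the size for that gene depends on the probe. Hist1h2bc was higher by 0.50 (SE 0.15, limma adjusted p = 0.016), with its highest mean in ST-HSC (11.05 to 11.57), but the difference was -0.17 with scan run as a block and 0.15 within run 2. The other H2B genes called higher were Hist1h2ba (0.44), Hist2h2be (0.36), Hist1h2bk (0.32) and Hist1h2bm (0.29). None of these was called with scan run as a block, and their calls were lost under 3, 5, 8 and 16 of 26 alternative tests, in that order. Hist1h2ba, Hist1h2bk and Hist1h2bm are among the genes whose octamer windows are printed above. Hist3h2ba matched a promoter without the octamer. By their brightest probes, Hist2h2bb and the 6 H2A genes with the octamer were not called in this comparison.

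Hist1h2bp, well above background on 15 arrays, was called lower in HSC subsets (-1.22, SE 0.33, limma adjusted p = 0.010), at 1.78 to 4.74 on HSC subset arrays against 4.15 to 6.35 on myeloid arrays. It was highest in MEP, at 5.20, 5.42 and 6.35. The H2A gene called was Hist1h2al (1.25, SE 0.47, limma adjusted p = 0.049), which was well above background on 5 HSC subset arrays and on 1 myeloid array, so that the size of the difference is uncertain, and which was at -0.60 within run 2. The H3 genes called were Hist1h3d (0.49) and Hist2h3c1 (0.39), which share their probes with other genes, and Hist1h3a, whose probe spans the stem-loop, differed by 0.21 (limma adjusted p = 0.38). Hist1h2ab, whose probe ended in the stem-loop, differed by -0.80 (limma adjusted p = 0.067), and Hist1h2ae, whose probe lay mostly 3′ of it, by 0.02 (adjusted p = 0.95). For Hist3h2a, a dimmer probe well above background on all 17 arrays was called higher (0.64, limma adjusted p = 0.012), where the brightest gave -0.09. For Hist2h2aa1, a dimmer probe well above background on 2 arrays was called lower (-1.10, adjusted p = 0.0088).

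**Figure D3:**
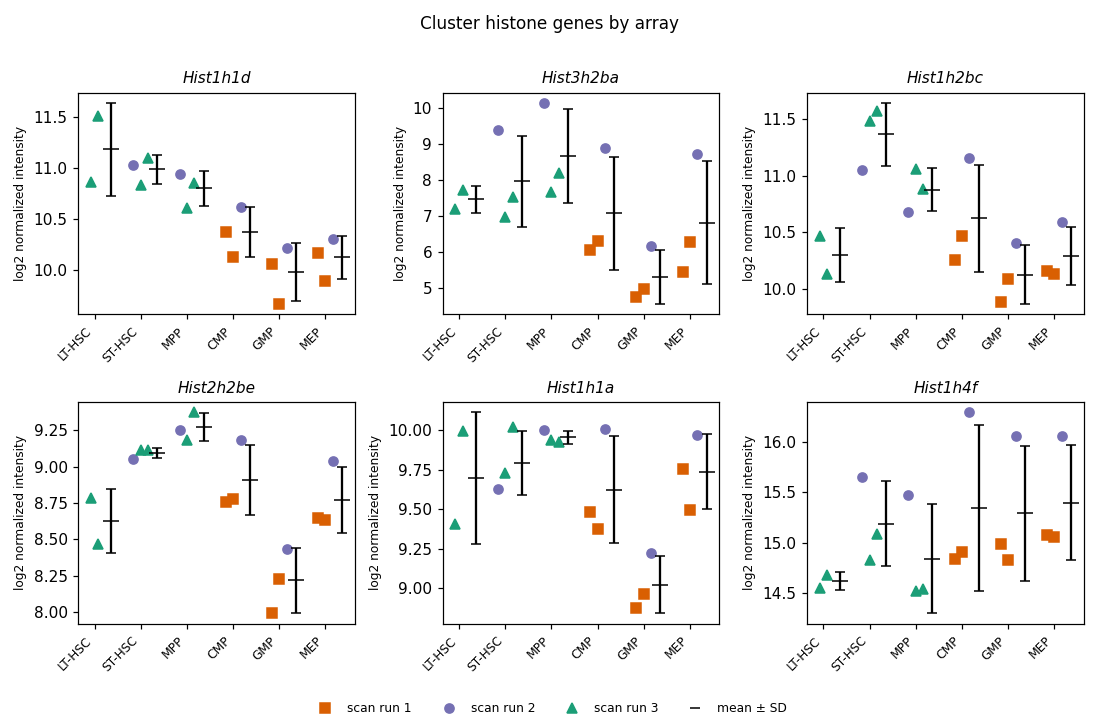
Cluster histone genes by array, in 6 panels with 1 gene each: x axis, population; y axis, log2 normalized intensity. Symbols are arrays with their scan run, bars mean ± SD (n = 2 LT-HSC, n = 3 others). Hist1h1d stepped down from HSC subsets to myeloid progenitors, Hist2h2be and Hist1h1a were lowest in GMP, and Hist1h4f was set apart mainly by its run 2 arrays.

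Between single populations few cluster genes were called without scan run as a block. In simulated data this fit found 18% of the genes given a log2 change of 1 for MPP minus LT-HSC and for GMP minus CMP. It found 26% for MPP minus ST-HSC, 29% for MEP minus CMP and 38% for MEP minus GMP. A gene that was not called may therefore still differ. MPP minus LT-HSC gave 0 of 36 by limma, beside 8.44% of all gene names (3 at an unadjusted p under 0.05), although 27 differences were above 0 with a median of 0.21 against 0.02 for all gene names. MPP minus ST-HSC gave 0, beside 2.68% (0 at an unadjusted p under 0.05; median -0.19), and MEP minus CMP gave 0, beside 18.3% (again 0 unadjusted; median -0.04). These counts changed when scan run entered the limma fit as a block. MPP minus LT-HSC then gave 5, beside 17.3% of all gene names, of which Hist2h2be (0.66, adjusted p = 0.0061), Hist1h2bc (0.70, adjusted p = 0.011), Hist1h2ae (1.54, adjusted p = 0.024, well above background on 1 of 2 LT-HSC arrays) and Hist1h1c (0.58, adjusted p = 0.027) were higher in MPP. Hist1h2be, whose probe was well above background on no array, was the one lower. MPP minus ST-HSC gave 1, Hist1h1c (-0.63, limma adjusted p = 0.019), beside 4.78%, and MEP minus CMP gave 2, Hist1h4i higher (0.43, adjusted p = 0.018) and Hist2h3c1 lower (-0.36, adjusted p = 0.021), beside 27.5%.

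GMP had the lowest mean for 12 of the 36 cluster genes. Of these, Hist2h2be was measured at 7.99, 8.23 and 8.43 in GMP, at 8.76, 8.78 and 9.18 in CMP, at 8.64, 8.65 and 9.03 in MEP and at 8.47 to 9.38 in the HSC subsets, so every GMP array was below every other array. It was the 1 cluster gene called between GMP and CMP without scan run as a block (-0.69, SE 0.17, limma adjusted p = 0.028), beside 5.88% of all gene names, and that call was lost when any 1 of the CMP arrays, GMP 1 or GMP 2 was left out. The block gave 5, all lower in GMP, beside 9.93% of all gene names: Hist2h2be (limma adjusted p = 0.0019), Hist3h2ba (-1.78, adjusted p = 0.0075, well above background on 2 of 3 GMP arrays), Hist1h3a (-0.68, adjusted p = 0.015), Hist1h2bc (-0.50, adjusted p = 0.034) and Hist1h1a (-0.60, adjusted p = 0.036). MEP minus GMP gave 3 of 36 higher, near the 8.51% of all gene names, with Hist2h2be at 0.56 (SE 0.17, limma adjusted p = 0.034), Hist1h1a at 0.72 (SE 0.21, adjusted p = 0.027) and Hist2h2bb at least 1.21-fold higher (adjusted p = 0.027). Hist1h1a was measured at 8.87, 8.97 and 9.22 in GMP and at 9.49, 9.75 and 9.97 in MEP, which did not overlap. Hist2h2bb was well above background on 1 MEP array and on no GMP array. Without the unnumbered MEP array or GMP 2 none of the 3 was called, and without GMP 1 only 1 was. The block gave 6 higher, beside 27.2% of all gene names called in either direction, adding Hist1h3a, Hist1h4i and Hist3h2ba.

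Over the 6 populations, the lowest mean of a cluster gene was found in LT-HSC for 16 genes and in GMP for 12, and the highest in ST-HSC for 13 and in MEP for 12. Of all gene names, 21.5% had their lowest mean in LT-HSC, 15.8% in GMP, and 11.1% and 27% their highest in ST-HSC and MEP. The 36 cluster genes share their arrays and in part their probes, so these counts describe these arrays and carry no test.

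Levels of cluster genes also differed between scan runs. With population in the same fit, limma called the scan run for 23 of 36 cluster genes (63.9%) and 8 of 13 replacement variants (61.5%), beside 32.1% of all gene names. Levels in run 2 were above run 1 for 29 cluster genes with a median of 0.66, and for 12 replacement variants with a median of 0.64, against 0.01 for all gene names. The H4 gene Hist1h4f is an example, with 16.06 to 16.30 on the run 2 arrays of CMP, GMP and MEP and 14.82 to 15.07 on their run 1 arrays.

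With scan run as a block in the limma fit, 2 cluster genes were called higher in HSC subsets (Hist3h2ba and Hist1h1d) and 5 lower (Hist1h1b at -1.18, Hist1h1c at -0.89, Hist1h4d at -0.51, Hist1h4f at -0.62 and Hist1h4i at -0.54), beside 16.1% of all gene names. The median cluster difference moved from 0.04 to -0.24. On the 5 arrays of run 2 alone, which allow values and no test, 13 of 36 differences were above 0 with a median of -0.21, against -0.06 for all gene names. Of the 11 cluster genes called higher over all arrays, 10 were also above 0 within run 2, the exception being Hist1h2al, and Hist1h2bp was below 0. The run 2 arrays are among those that made the calls, so part of this is built in. Of the 7 replacement variants called higher, all 7 were above 0 within run 2, but only H2afy3 was still called with scan run as a block. The 2 other replacement variants called with the block, H2afy higher and H2afz lower, were not among those called without it. Of all 49 histone genes, 12 changed the sign of this difference with the block, and 2 of these were then called, H2afy and Hist1h1c.

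By histone type, differences were compared over all arrays, with scan run as a block and within run 2, in that order. Over all gene names, 46%, 54.8% and 57.6% of differences were below 0. All 6 H4 genes had differences below 0 under each setting, with medians of -0.38, -0.45 and -0.36, but limma called 0 of them over all arrays and 3 with the block. All 3 H3 genes had differences above 0 under each, with medians of 0.39, 0.17 and 0.27, of which 2 were called over all arrays and 0 with the block. H2B had 8, 8 and 7 of 10 genes above 0, with 6 called higher over all arrays and 1 with the block. H2A had 6, 0 and 1 of 11 genes above 0, and H1 had 3, 2 and 2 of 6. Many of the H3 and H4 probes list several genes, so the genes of a type are not independent readings.

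**Figure D4:**
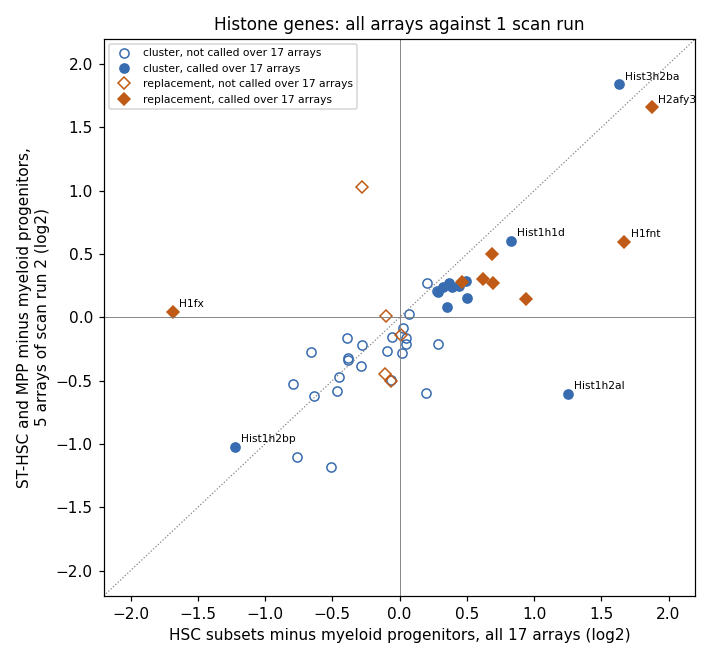
Histone genes over all arrays against 1 scan run: x axis, log2 difference of HSC subsets minus myeloid progenitors over all 17 arrays; y axis, ST-HSC and MPP minus myeloid progenitors on the 5 arrays of run 2. Circles are the 36 cluster genes and diamonds the 13 replacement variants, filled where called over 17 arrays, and the dotted line marks equal values. Most called genes kept their sign but lay below the line, while Hist1h2al and H1fx changed sign.

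MEP against GMP was compared within run 1 as well, where both populations share slides. There limma called 7 cluster genes higher and 1 lower, beside 24.6% of all gene names in either direction. The genes higher were Hist1h1a (0.70), Hist1h2ab (0.42), Hist1h2bp (0.79), Hist1h3a (0.76), Hist1h4a (0.35), Hist1h4i (0.61) and Hist2h2be (0.53), and Hist1h2ac was lower (-1.42). Hist1h1a and Hist2h2be were thus called both over all arrays and within run 1. The run 1 arrays are among those that made the calls over all arrays, so part of this is built in.

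The genes that make, process and chaperone histones were read from a list of 36 genes. Of these, 17 act in expression and 3′ end processing and 19 are chaperones that carry histones to DNA. In HSC subsets against myeloid progenitors limma called 3 higher and 13 lower (expression and processing, 1 and 7; chaperones, 2 and 6). The 16 called are near the 40.7% of all gene names; with scan run as a block 0 were higher and 8 lower, beside 16.1%. Those with the largest differences upward were Nap1l1, an H2A-H2B chaperone (0.74), Lsm10, a part of the U7 particle that cuts histone mRNA ends (0.36), and Nap1l4 (0.29). None of these was called with scan run as a block, at 0.25, -0.11 and 0.0018, and the mean of all Nap1l4 probes gave -0.93. Downward they were Hira, Chaf1a and Cpsf3.

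Hira, which places H3.3 in chromatin, was measured at 5.37 to 6.47 on HSC subset arrays, at 7.46, 7.66 and 7.82 on the run 2 arrays of CMP, MEP and GMP and at 9.26 to 10.11 on those of run 1. The groups did not overlap, but the myeloid arrays of the 2 runs did not overlap each other either. The difference was -3.03 over all arrays and -1.49 with scan run as a block, where it was still called (limma adjusted p = 0.0034). Chaf1a, a subunit of the CAF-1 complex that deposits new H3 and H4 behind the replication fork, was 3.09-fold lower (-1.63, SE 0.17, limma adjusted p = 6.6e-06), with 10.16 to 11.22 against 11.89 to 12.67, and was still called with scan run as a block (-0.87). Cpsf3, the nuclease that cuts mRNA ends, was lower by a log2 difference of -1.22 (SE 0.16, limma adjusted p = 3.9e-05), but by -0.41 within run 2 and by -0.48 with scan run as a block, where it was not called (adjusted p = 0.053). Asf1b, an H3-H4 chaperone of dividing cells, was measured at 10.80 to 11.52 on HSC subset arrays and at 11.76 to 12.28 on myeloid arrays (-0.89, SE 0.076, limma adjusted p = 1.5e-06).

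In MEP, limma called 7 of the 36 genes higher and none lower than in CMP, and 9 higher and none lower than in GMP, beside 7.73% and 8.51% of all gene names higher (5 without GMP 1, 4 without GMP 2), while the cluster genes gave 0 and 3. Ubn1, a partner of Hira, was called lower than in CMP with scan run as a block (-0.41, limma adjusted p = 0.025) and within run 1 (-0.47, adjusted p = 0.030). All 17 expression and processing genes were above 0 against CMP and 16 of 17 against GMP, beside 61.4% and 58% of all gene names. Ccne1 and Ccne2, the E cyclins that switch on histone gene expression with Cdk2 at the start of S phase, had the largest called differences in both comparisons. Ccne1 was measured at 14.33, 14.42 and 14.52 in MEP and at 10.41 to 12.83 on all other arrays, which did not overlap. It was 6.5-fold above CMP (2.70, SE 0.22, limma adjusted p = 1.6e-06) and 7.36-fold above GMP (2.88, SE 0.22, adjusted p = 6.5e-07). Ccne2 was higher by 1.45 than in CMP and by 1.08 than in GMP, the cleavage factor Cstf2 by 0.93 than in CMP, and the chaperone Asf1a by 0.92 than in GMP.

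Slbp, which binds the stem-loop, was measured at 12.93, 13.04 and 13.40 in MEP, at 12.32, 12.32 and 12.81 in CMP and at 12.27, 12.32 and 12.51 in GMP. It was higher in MEP than in CMP by 0.64 (SE 0.20, limma adjusted p = 0.042) and than in GMP by 0.76 (SE 0.20, adjusted p = 0.017), and the groups did not overlap. The call against CMP was lost under 10 of 27 alternative settings and that against GMP under 3. Npat, the coactivator through which cyclin E acts on the clusters, was called in none of the comparisons (MEP minus GMP 0.40, limma adjusted p = 0.31). In MPP against LT-HSC the chaperones Cabin1 (0.69), Rbbp7 (0.69) and Ssrp1 (0.68) were higher and Ccne1 was lower (-1.98, SE 0.24, limma adjusted p = 0.00027), alongside the 6 MEP markers. The Cabin1 call was lost under 13 of 27 alternative settings. Without the unnumbered LT-HSC array only 1 of these 4 genes was called, and without MPP 3 only 2 were. Within run 3, where both populations were scanned together, limma called none of the 4 (adjusted p of 0.24, 0.15, 0.13 and 0.052, in that order), with differences of 0.58, 0.78, 0.71 and -1.91. The block gave 7 of the list, beside 17.3% of all gene names, adding Nap1l1 and Atrx higher and Asf1b lower in MPP. None of the list was called between MPP and ST-HSC (2 at an unadjusted p under 0.05) or between GMP and CMP (1 unadjusted) by limma without the block. With scan run as a block Asf1b was called lower in MPP than in ST-HSC (-0.49, limma adjusted p = 0.011) and Chaf1b lower in GMP than in CMP (-0.40, adjusted p = 0.034).

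**Figure D5:**
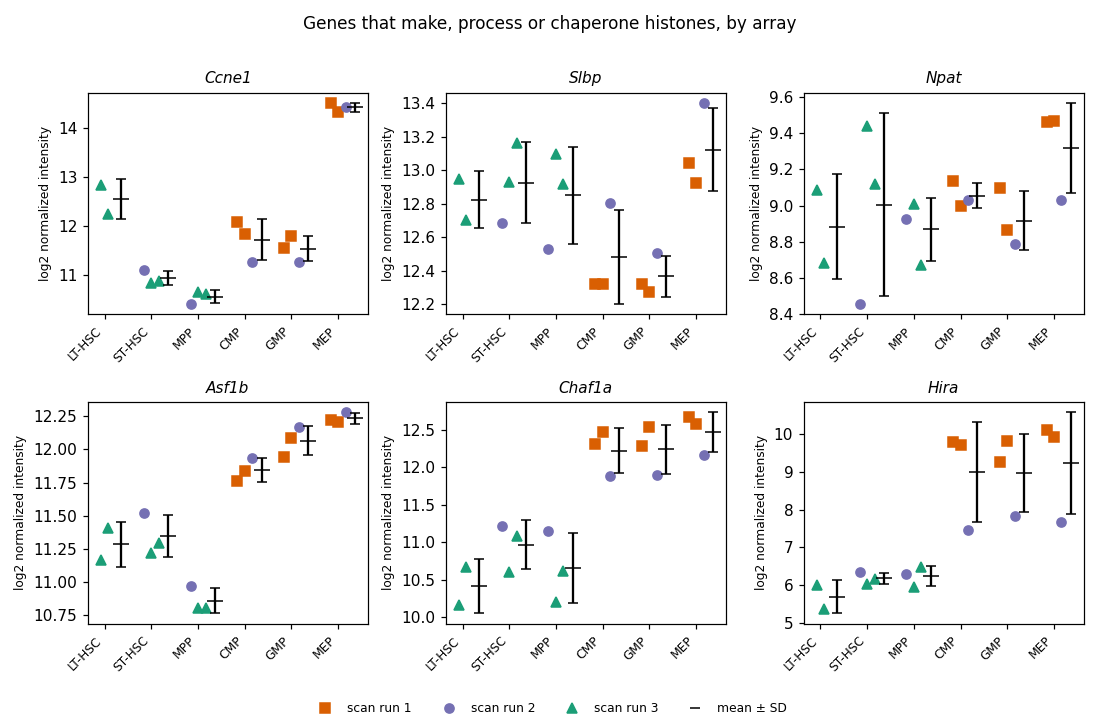
Genes that make, process or chaperone histones, by array, in 6 panels with 1 gene each: x axis, population; y axis, log2 normalized intensity. Symbols are arrays with their scan run, bars mean ± SD (n = 2 LT-HSC, n = 3 others). Ccne1 and Slbp were higher in MEP than in CMP and GMP, Asf1b and Chaf1a were lower on every HSC subset array than on every myeloid array, and the Hira values of myeloid progenitors fell into 2 levels by scan run.

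Genes of DNA replication, listed because cluster genes are used in S phase, were lower in HSC subsets for 19 of 30 and higher for 0 by limma, with a median difference of -0.34, beside 19.1% of all gene names lower and 21.7% higher. Within run 2 all 30 were below 0, beside 57.6% of all gene names. In MEP 7 of 30 were higher than in CMP and 6 than in GMP, with none lower, beside 7.73% and 8.51% of all gene names higher. The cluster genes, with a median of 0.04 for HSC subsets minus myeloid progenitors and of -0.04 for MEP minus CMP, differed in sign from the replication genes in those medians. With scan run as a block and within run 2, however, the medians of HSC subsets minus myeloid progenitors were below 0 for both, at -0.24 and -0.21 for cluster genes and -0.60 and -0.50 for replication genes. For MEP minus GMP both medians were above 0, at 0.15 and 0.34. The comparisons share arrays, so these medians are set side by side with no test between them.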

How the data were processed

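Total RNA of sorted populations was labelled with Cy3 and hybridized by the authors to 17 single-color Agilent whole mouse genome arrays. The deposited scanner files hold intensity values, background-subtracted by Feature Extraction. The deposited value table holds log2 values that the authors quantile-normalized and was used as an alternative. Groups came from the labels. Here log2 processed intensity was quantile-normalized over all 45018 spots, with control and outlier-flagged spots included. Then 1639 control spots and the outlier-flagged spots were left out, and spots were averaged per probe (41174 probes). The brightest probe stood for each of 28090 gene names. All 17 arrays entered 1 fit with lmFit and eBayes (limma 3.58.1, R 4.3.3) with Benjamini-Hochberg adjustment over all gene names and a threshold of 0.05. The fit was tested on simulated data. Members and gene lists were chosen with earlier results of these data known. Named genes were, per comparison, up to 4 cluster, 2 replacement and 3 list genes called in each direction by size, the smallest F-test p-values, and Slbp, Npat, Hira and Asf1b; other genes of the report were picked after their values were seen. Alternatives were 75th percentile scaling, normexp (offset 50), the deposited table, leaving out dim probes, scan run, slide or label number as a block, fits within runs, the mean of a gene's probes, and each array left out. Scan day as a block was chosen after seeing the data. The number of arrays limits the precision.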

Additional observations from a re-analysis of the deposited data

How the results depend on the processing

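The H2afy differences of MEP from CMP and GMP, the H2afy3 difference of HSC subsets from myeloid progenitors and that of MEP from CMP were called in the same direction under every alternative that gave a test (26 for HSC subsets minus myeloid, for which run 2 alone gives a value and no test, and 27 for the others). H2afy in MPP minus ST-HSC was not called so under 8 of 27, and H2afy3 in MEP minus GMP under 13 of 27. In HSC subsets minus myeloid it was 2 of 26 for Hist1h1d, 14 for Hist3h2ba, 16 for Hist1h2bm, 17 for Hist1h1a and 18 for H1fx, and 18 of 25 for Hist1h2al. The cause of the changes below was not tested.

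Counts of cluster genes called moved by over 1.5 times as follows. With 75th percentile scaling they were 3 by F-test, 4 for HSC subsets minus myeloid, 1 for MPP minus LT-HSC, 0 for GMP minus CMP and 1 for MEP minus CMP. With normexp and with the authors' table they were 1 for MPP minus LT-HSC and 1 for MEP minus CMP. With scan run as a block they were 11 by F-test, 7 for HSC subsets minus myeloid (2 higher, 5 lower), 5 for MPP minus LT-HSC, 1 for MPP minus ST-HSC, 5 for GMP minus CMP, 2 for MEP minus CMP and 6 for MEP minus GMP. With scan day as a block they were 11, 6, 5, 1, 5, 1 and 8 in the same order. With slide as a random block they were 5 for HSC subsets minus myeloid, 3 for GMP minus CMP and 5 for MEP minus GMP. Within run 1 they were 2 for MEP minus CMP and 8 for MEP minus GMP.

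Replacement variants called were 5 by F-test and 0 for GMP minus CMP with 75th percentile scaling, and 2 for MPP minus ST-HSC with normexp or the authors' table. With scan run as a block, and equally with scan day, they were 3 for HSC subsets minus myeloid, 5 for MPP minus LT-HSC, 2 for MPP minus ST-HSC, 2 for GMP minus CMP and 5 for MEP minus CMP. With the mean of all probes they were 0 for MPP minus ST-HSC and 0 for GMP minus CMP, within run 1 they were 0 for GMP minus CMP, and within run 3 they were 1 for MPP minus LT-HSC and 0 for MPP minus ST-HSC. Genes that make, process or chaperone histones gave 8 for HSC subsets minus myeloid, 13 for MEP minus CMP (12 higher, 1 lower) and 14 for MEP minus GMP with scan run as a block, 8, 12 and 15 with scan day, and 13 and 14 for the MEP comparisons within run 1. For MPP minus LT-HSC they gave 7 with scan run, scan day or label number as a block, 2 with 75th percentile scaling or slide as a random block, and 0 within run 3. For MPP minus ST-HSC they gave 1 with normexp, the authors' table or any of these blocks, and for GMP minus CMP 1 with scan run or scan day. Replication genes gave 13 for MEP minus CMP with 75th percentile scaling, and 13 for MEP minus CMP and 11 for MEP minus GMP with scan run as a block, with 10 for MEP minus GMP with scan day.

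Leaving out 1 array at a time, cluster counts ranged from 3 to 11 by F-test (3 without MPP 2, MPP 3, GMP 1 or GMP 2, 11 without the unnumbered ST-HSC array), from 7 (without MPP 3) to 14 for HSC subsets minus myeloid, from 0 to 3 for MPP minus LT-HSC (3 without the LT-HSC pool), from 0 to 0 for MPP minus ST-HSC, from 0 to 1 for GMP minus CMP and MEP minus CMP, and from 0 to 3 for MEP minus GMP. Replacement counts ranged from 7 to 9, 7 to 8, 2 to 3, 0 to 1, 0 to 1, 3 to 4 and 2 to 3 in the same order. The list of genes that make, process or chaperone histones ranged from 14 to 17 for HSC subsets minus myeloid, from 1 (without the unnumbered LT-HSC array; 2 without MPP 3) to 5 for MPP minus LT-HSC, from 0 to 0 for MPP minus ST-HSC and for GMP minus CMP, from 5 to 8 for MEP minus CMP and from 4 (without GMP 2) to 9 for MEP minus GMP, and replication genes from 16 to 21, 5 to 9 and 5 to 7. Where LT-HSC was left with 1 array, it was assumed to vary like the other populations.

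Among the differences of HSC subsets minus myeloid called over all arrays, those that changed sign were H1fx (0.23), Hist1h2al (-0.66), Hist1h2bc (-0.17) and Lsm10 (-0.11) with scan run as a block, the same genes with scan day (0.33, -0.40, -0.14 and -0.15), H1f0 (-0.019) and Nap1l4 (-0.93) with the mean of all probes, and H1fx (0.044) and Hist1h2al (-0.60) within run 2. Over all gene names, the split of higher and lower calls for HSC subsets minus myeloid was 6083 and 5355, against 8335 and 3625 with 75th percentile scaling, under which the median of all gene names was 0.37 in place of 0.04.

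With the number in the label as a replicate block, cluster genes called were 19 by F-test, 20 for HSC subsets minus myeloid, 12 for MPP minus LT-HSC, 4 for GMP minus CMP, 2 for MEP minus CMP and 9 for MEP minus GMP, and replacement variants 6 for MPP minus LT-HSC and 2 for MPP minus ST-HSC. Numbered arrays with the same number correlated in their deviations at 0.131 to 0.531 within a scan run and at -0.066 to 0.021 across runs. In the numbered CMP, GMP and MEP arrays each number was also 1 slide, so number and slide cannot be told apart there, and the numbers were not taken to pair samples across runs.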
